A study of Mus musculus with 4 samples.

Results

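The genes described here make, sense and break down prostaglandins: the synthases Ptgs1, Ptgs2, Ptges, Ptgds and Ptgis, the prostaglandin E2 receptors Ptger1, Ptger2, Ptger3 and Ptger4, and the degrading enzyme Hpgd. They were taken by name, as the probe sets whose platform annotation named one of these 10 genes alone. Of the 10 genes, 9 were represented, by 17 probe sets, of 18194 genes and 34945 such probe sets in all. Ptgs1, the constitutive cyclooxygenase, had no such probe set in the annotation used and was not analysed here. All 9 genes lay above the signal filter (below), so none was lost to it.

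The cultures were brown-like adipocytes grown from the stromal vascular fraction (SVF) of epididymal fat, the mixed precursor, immune and vascular cells left when fat cells are removed. The donors were male mice aged 4 months. They were wild-type in one group and Lgr4 homozygous mutant in the other, with 2 arrays, called biological replicates, for each. Lgr4 is a receptor for R-spondins that strengthens Wnt signalling, and the design asked whether its loss eases brown-like differentiation. Both genotypes were expanded in medium with 10% fetal bovine serum and 10 ng/ml bFGF. They received insulin at 5 µg/ml, isobutylmethylxanthine at 0.5 mM, dexamethasone at 1 µM, T3 at 50 nM and troglitazone at 5 µM for 48 h. Insulin, T3 and troglitazone were then kept for 6 days. Dexamethasone, a glucocorticoid, and troglitazone, a PPAR gamma agonist, were therefore part of the treatment of wild-type and mutant cultures alike, and no culture without them was measured. For the kind of Lgr4 mutation, and for whether replicates came from separate animals or platings, the answer is not given in the sources used here. The p-values therefore rest on the spread between the arrays alone, and that spread may be technical.

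Prostaglandins are short-lived lipids made from arachidonic acid. Phospholipases release the fatty acid, the cyclooxygenases Ptgs1 and Ptgs2 turn it into prostaglandin H2, and terminal synthases convert this into prostaglandin E2, D2, prostacyclin and others. In adipose tissue prostaglandin E2 is known to restrain lipolysis through its Gi-coupled receptor, and cyclooxygenase 2 and its products have been tied to the recruitment of beige fat cells, whereas prostaglandin F2 alpha is known to inhibit adipogenesis.

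Signals are given on the log2 scale, and each gene by its brightest probe set. Genes whose mean over the 4 arrays exceeded 6.13, the 40th percentile, were tested. Signals of different genes come from different probes and are not compared as levels. The probe set for Lgr4 itself read 8.65 and 8.20 (wild-type arrays) against 6.18 and 6.09 (mutant arrays) (log2 difference -2.29, adjusted p = 1.45e-05). The fat cell hormone gene Adipoq read 11.24 to 14.48 over the arrays. Of 8 listed brown adipocyte genes 6 were tested, of which 4 rose and 2 did not pass. Over all tested genes 11.1% rose. Elovl3, a fatty acid elongase, rose by 4.16 from a wild-type mean of 6.07, below the filter. The respiratory chain genes Cox8b and Cox7a1 rose by 3.94 and 1.44. The thermogenic gene Ucp1 read 4.99 and 5.86 in wild-type, below the filter, and 8.17 and 7.49 in mutant cultures. Both Elovl3 and Ucp1 were tested only because of their mutant values. Cox7a1 (9.03 and 9.23) and Cox8b (6.81 and 6.71) lay above the filter in wild-type cultures too. Dio2 (0.17) and Prdm16 (0.19) did not pass. Ppargc1a had a mean below the filter, at 4.85 and 5.02 against 6.86 and 6.83. Cidea lay below it on all 4 arrays, at 4.87 to 5.10.

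Prostaglandin genes went both ways in the mutant cultures. Of the 9 genes tested, 2 rose (Ptges and Ptger3), 3 fell (Ptger2, Ptger4 and Ptgis) and 4 did not pass an adjusted p of 0.05. The 5 calls compare with 29.8% of all 13173 tested genes, of which 11.1% rose and 18.7% fell. In 8 of the 9 genes the wild-type and mutant pairs of values did not overlap, against 68.8% of all tested genes. The median log2 difference of the 9 genes was 0.06, and -0.03 over all tested genes. The median size of the difference, sign aside, was 0.45 against 0.20.

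**Figure D1:**
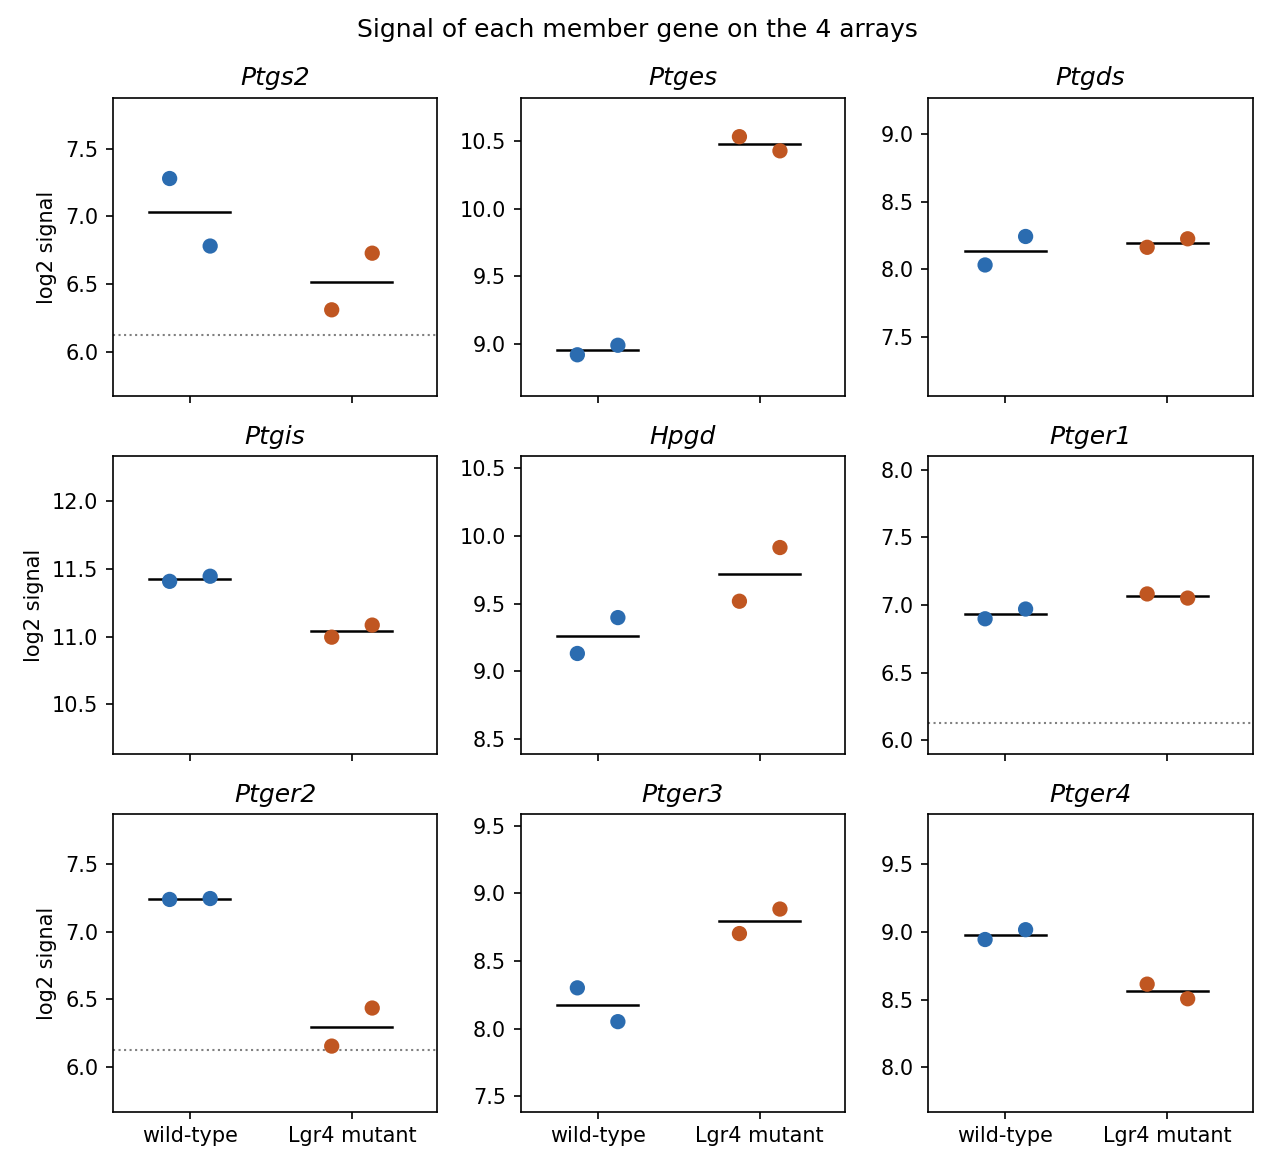
Log2 signal (vertical axis) of the probe set used for each of the 9 genes on the 2 wild-type (blue) and 2 Lgr4 mutant (orange) arrays, with a line at each group's mean and a dotted line at the signal filter of 6.13 where it is in range. Every panel spans the same log2 range, so Ptges (8.95 to 10.48 in group means) shows the widest gap and Ptgds the only overlapping pairs.

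**Figure D2:**
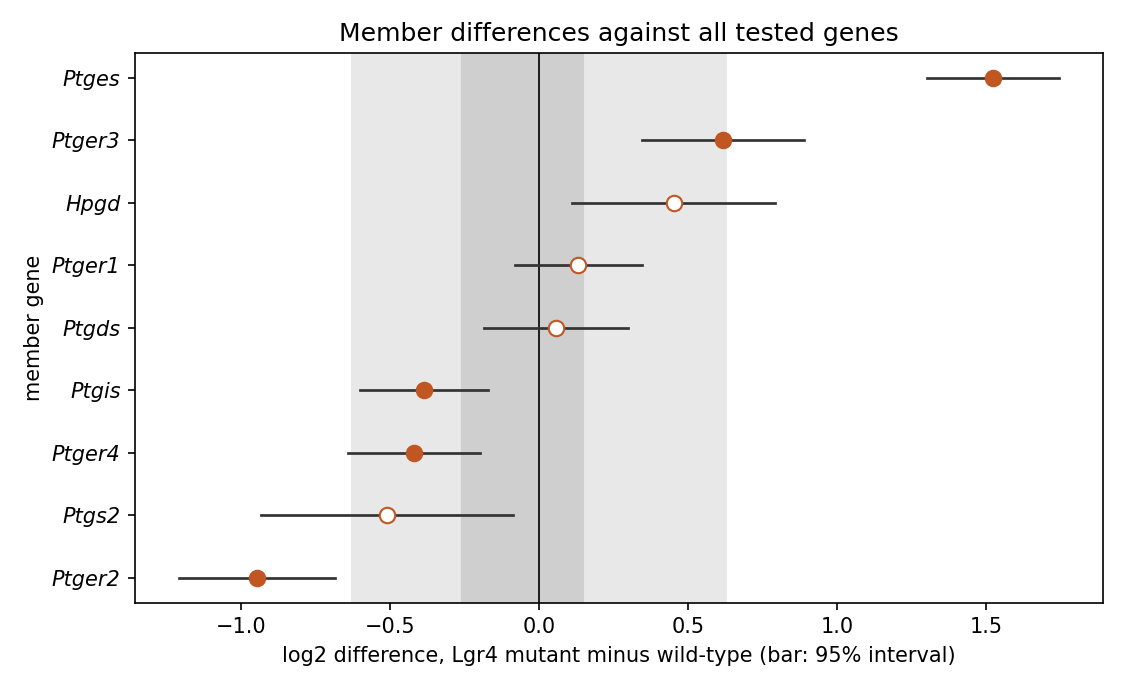
Log2 difference, mutant minus wild-type, of the 9 genes with 95% intervals (horizontal axis), filled where the adjusted p was under 0.05; grey bands hold the middle 50% and 90% of all tested genes. Ptges (1.52) and Ptger2 (-0.95) lie outside the wider band, which runs from -0.63 to 0.63.

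Of the cyclooxygenases only Ptgs2 was measured, without Ptgs1, and its difference did not pass the test. Ptgs2 encodes cyclooxygenase 2, the inducible enzyme at the head of the pathway. It read 7.28 and 6.78 (wild-type arrays) against 6.31 and 6.73 (mutant arrays). Both mutant values lay under both wild-type values, but only by 0.05 at the closest, while the wild-type pair was itself 0.50 apart and the mutant pair 0.42. The difference was -0.51 (SE 0.18, 95% interval -0.93 to -0.09), with an adjusted p of 0.0697. It moved from -0.26 without wild-type replicate 1 (adjusted p = 0.217) to -0.76 without wild-type replicate 2 (0.00424). It was -0.30 without mutant replicate 1 (0.344) and -0.72 without mutant replicate 2 (0.00933), so its call turned on single arrays. The other Ptgs2 probe set read 3.95 to 4.29 on all arrays, near the floor of the array, with a difference of -0.17.

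Ptges showed the largest difference of the 9 genes. It encodes microsomal prostaglandin E synthase 1, the inducible enzyme that turns prostaglandin H2 into prostaglandin E2. Signal was 8.92 and 8.99 (wild-type arrays) against 10.53 and 10.43 (mutant arrays), so both mutant arrays stood well above both wild-type arrays. It rose from 8.95 ± 0.050 to 10.48 ± 0.074 (SD, n = 2 per genotype), or 2.88-fold (log2 1.52, SE 0.096, adjusted p = 1.49e-05). Of all tested genes 1.78% had a larger difference in either direction. Both other Ptges probe sets moved the same way. One read 8.60 and 8.58 against 9.93 and 9.94 (1.34), and the dimmest read 7.38 and 7.35 against 8.24 and 8.06 (0.79). The size of the rise thus ran from 0.79 to 1.52 with the probe set, and was 1.22 when the 3 were averaged.

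The bases just upstream of an annotated start of Ptges are shown because it is the gene with the largest difference. The sequence is from RefSeq (GRCm38.p6), chr2:30903298-30903547 on the minus strand, 250 bases ending at the base before the start. This window lies inside the RefSeq span of the gene, which has a further start upstream. Capitals mark GC boxes, searched as GGGCGG on both strands.
Ptges: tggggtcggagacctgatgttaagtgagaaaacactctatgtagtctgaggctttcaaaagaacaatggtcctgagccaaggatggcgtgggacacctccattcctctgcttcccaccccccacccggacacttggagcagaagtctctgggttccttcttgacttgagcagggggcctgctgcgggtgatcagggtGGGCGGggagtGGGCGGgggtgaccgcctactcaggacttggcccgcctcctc
It holds 2 GC boxes, the first from base -53 to -48 and the second from -42 to -37 relative to the start. GC boxes occurred in the same window of 32.7% of 32851 RefSeq promoters. Further motifs searched on both strands had no match in this window. They were the TATA box TATAAA (in 12.4% of all promoters), the CCAAT box (33.8%), the C/EBP motif TTGCNNAA (9.56%) and the cAMP response element TGACGTCA (1.55%). The others were the TCF/LEF motifs ATCAAAG (3.21%) and TTCAAAG (4.46%), the PPAR direct repeat (0.0335%) and the NF-kB motif (3.33%).

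The genes whose profile over the 4 arrays, centred on its own mean, lay nearest to that of Ptges were Mknk2, Mgst3 and Ech1. Mknk2 encodes a MAP kinase-interacting kinase, Mgst3 a microsomal glutathione transferase and Ech1 a dienoyl-CoA isomerase. Euclidean distances were 0.0349, 0.0814 and 0.0824 on the log2 scale, and their own differences were 1.52, 1.56 and 1.60. This likeness rests on 4 arrays and mainly on the size of the genotype difference.

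**Figure D3:**
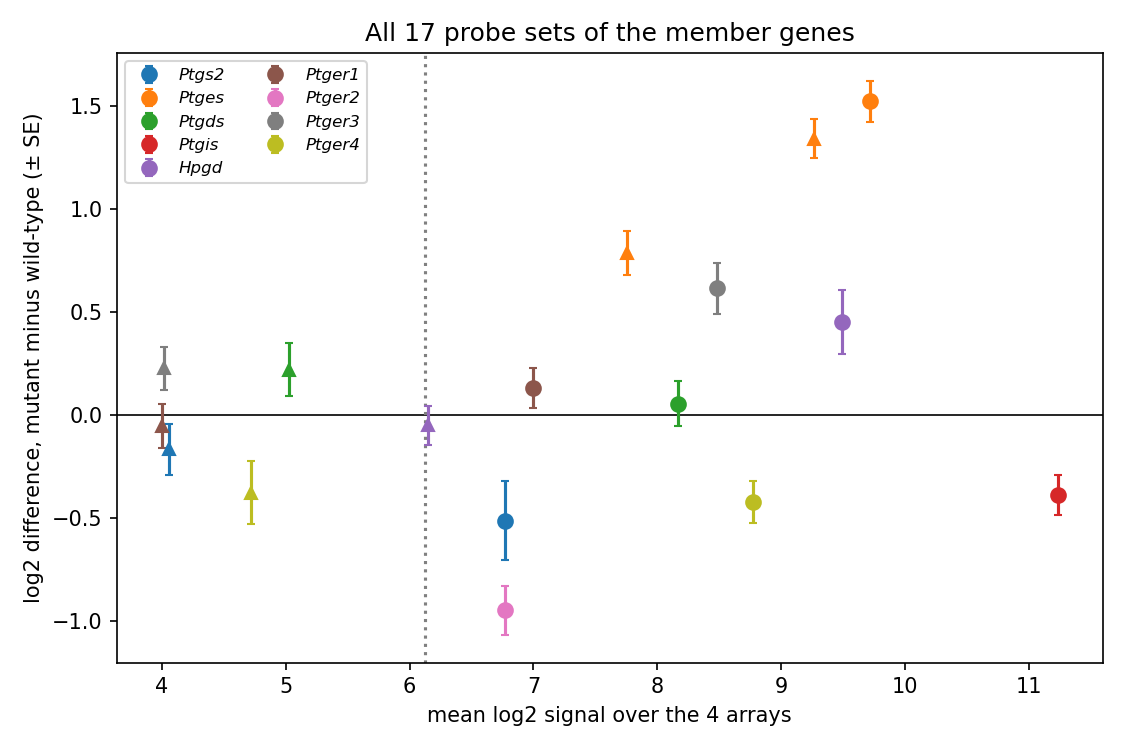
Log2 difference, mutant minus wild-type, with its SE (vertical axis) against mean log2 signal (horizontal axis) for all 17 probe sets, circles for the probe set used and triangles for the others, with the signal filter dotted. The 3 Ptges probe sets lie between 0.79 and 1.52, while the second probe sets of Ptgs2, Ptgds, Ptger1, Ptger3 and Ptger4 lie left of the filter.

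The other terminal synthases changed less. Ptgis, which makes prostacyclin, read 11.41 and 11.45 (wild-type arrays) against 11.00 and 11.08 (mutant arrays), without overlap. It fell by 0.39 on the log2 scale (SE 0.094, adjusted p = 0.0165), a 1.31-fold difference. The difference was -0.34 without mutant replicate 1 and -0.43 without mutant replicate 2. Its SE widened to 0.17 in both fits, and the call was lost. The SE of Ptges widened alike, to 0.17. Ptgds, the lipocalin-type prostaglandin D synthase, read 8.03 and 8.24 (wild-type) against 8.16 and 8.23 (mutant). These pairs overlapped, and the difference of 0.06 had a 95% interval from -0.19 to 0.30 (adjusted p = 0.718). Without wild-type replicate 1 it was -0.05.

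Hpgd encodes 15-hydroxyprostaglandin dehydrogenase, which inactivates prostaglandin E2. It read 9.13 and 9.40 (wild-type) against 9.52 and 9.91 (mutant). The mutant values were the higher, but the pairs were only 0.12 apart at the closest, less than the gap of 0.27 inside the wild-type pair and 0.40 inside the mutant pair. The difference of 0.45 (SE 0.15, 95% interval 0.11 to 0.79) had an adjusted p of 0.0516. A second round of quantile normalization took it past the threshold (0.53, adjusted p = 0.037), as did runs with each array centred on the median of the tested genes (0.51, 0.0426), with a spread trend (0.0432), without wild-type replicate 2 (0.58, 0.012) and without mutant replicate 1 (0.65, 0.0133). Averaging its probe sets gave 0.20 (0.179), since its second probe set, at 6.12 to 6.18, differed by -0.05. Without mutant replicate 2 the difference was 0.25 (0.402).

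The 4 receptors for prostaglandin E2 did not move as a block. Ptger2 and Ptger4 encode the receptors EP2 and EP4, which couple to Gs and raise cAMP, and both fell. Ptger3 encodes EP3, which couples mainly to Gi and lowers cAMP, and it rose. Ptger1 encodes EP1, which signals through calcium, and its difference did not pass. The direction of each receptor was the same under every alternative run.

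Ptger2 fell most. It read 7.24 and 7.25 (wild-type arrays) against 6.16 and 6.44 (mutant arrays), so the wild-type pair was tight and the mutant pair lay below it, close to the filter of 6.13. Mean signal fell from 7.24 ± 0.0048 to 6.30 ± 0.20 (SD over 2 arrays), which is 1.93-fold lower, at a log2 difference of -0.95 (SE 0.11, adjusted p = 5.97e-04). At low signal the array compresses differences, so this fold is not exact. Leaving out single arrays gave -1.09 to -0.81, and 4.46% of tested genes had a larger difference in either direction. Only 1 probe set named Ptger2.

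Ptger4 fell less. It read 8.94 and 9.02 (wild-type) against 8.61 and 8.51 (mutant), without overlap. The difference was -0.42 (SE 0.096, adjusted p = 0.0131), or 1.34-fold. As for Ptgis, the call was lost with mutant replicate 1 (-0.47) or mutant replicate 2 (-0.37) left out, where the SE widened to 0.17. A second probe set, below the filter, read 5.14 and 4.67 against 4.51 and 4.55.

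Ptger3 read 8.30 and 8.05 (wild-type arrays) against 8.70 and 8.88 (mutant arrays). Both mutant values stood above both wild-type values. It rose by 0.62 (SE 0.12, adjusted p = 0.00603), or 1.53-fold, and by 0.49 to 0.74 when single arrays were left out. The dim second probe set read 3.86 and 3.94 against 4.06 and 4.20, and the difference was 0.42 when both were averaged. Ptger1 read 6.90 and 6.97 (wild-type) against 7.08 and 7.05 (mutant). These pairs did not overlap, but the difference of 0.13 was small (95% interval -0.08 to 0.35, adjusted p = 0.312). Its second probe set, near 4, differed by -0.05.

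The bases upstream of Ptger2 and Ptger3 are shown as those of the receptors that changed most in each direction. They are from RefSeq (GRCm38.p6), chr14:44987861-44988110 for Ptger2 and chr3:157566626-157566820 for Ptger3, both on the plus strand, searched for the same motifs as Ptges. Capitals mark a CCAAT box in Ptger2 and a GC box, read on the opposite strand, in Ptger3. The Ptger3 stretch is 195 bases, since another transcript starts after it.
Ptger2: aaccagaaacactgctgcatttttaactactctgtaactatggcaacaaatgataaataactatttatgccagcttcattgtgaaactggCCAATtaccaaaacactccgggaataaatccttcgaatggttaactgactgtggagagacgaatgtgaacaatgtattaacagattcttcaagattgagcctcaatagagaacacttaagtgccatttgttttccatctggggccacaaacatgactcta
Ptger3: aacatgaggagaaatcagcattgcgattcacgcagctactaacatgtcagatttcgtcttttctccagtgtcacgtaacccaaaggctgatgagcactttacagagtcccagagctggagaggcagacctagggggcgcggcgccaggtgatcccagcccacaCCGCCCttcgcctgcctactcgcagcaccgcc
The windows differ in composition, with 38.0% G and C over the 250 bases before the start of Ptger2 and 62.0% for Ptger3, against a median of 52.4% over all promoters. Over these 250 bases Ptger3 held 3 GC boxes and Ptger2 held none. Only 1 of the Ptger3 boxes lay wholly in the 195 bases shown. The 250 bases of Ptger3 thus include some past the start of the other transcript. Ptger4, which fell, held 4 and Ptges, which rose, held 2. Whether GC boxes go with the direction of change was not tested, and so few windows could not show it. Of the 10 genes, 8 had a promoter among those searched. The TCF/LEF motifs ATCAAAG (3.21% of all promoters) and TTCAAAG (4.46%) were in none of these 8 windows. With motifs this rare, their absence from 8 windows carries little information.

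The other genes of eicosanoid metabolism on the array numbered 52, of which 46 were tested: 11 rose, 16 fell and 19 did not pass. Over all tested genes 29.8% were called, 11.1% higher and 18.7% lower. The median difference of the 46 genes was -0.05 and the median size 0.42, against -0.03 and 0.20 over all tested genes. Without mutant replicate 1 the calls dropped to 15, with 10 higher and 5 lower.

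Genes that release, store or remodel arachidonic acid gave 5 rises and 4 falls among 15 tested, beside 11.1% and 18.7% of all tested genes. Pla2g4a, the cytosolic phospholipase A2 that feeds the cyclooxygenases, read 10.47 and 10.35 (wild-type) against 9.48 and 9.63 (mutant). It fell by 0.85 (adjusted p = 6.00e-04). Mgll, the monoglyceride lipase that also frees arachidonic acid from an endocannabinoid, rose by 3.19, from 9.06 and 8.90 to 12.26 and 12.09. With its 4 probe sets averaged the rise was 2.37. The secreted phospholipases Pla2g2e (2.01, from a wild-type mean of 5.91, below the filter) and Pla2g12a (1.07) rose, as did the calcium-independent Pla2g6 (1.18, or 0.60 with its 3 probe sets averaged) and the acyltransferase Lpcat3 (1.51). Pla2g7, which hydrolyses platelet-activating factor, fell by 0.59, and Acsl4, an acyl-CoA synthetase with a preference for arachidonic acid, by 0.50. Pla2g7 did not pass with mutant replicate 2 left out (adjusted p = 0.0748), nor Acsl4 with mutant replicate 1 left out (0.189).

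Among 8 further genes of prostaglandin synthesis and ketone reduction, 3 rose and 2 fell, beside 11.1% and 18.7% of all tested genes. Ptges2, another enzyme described as a prostaglandin E synthase, read 7.88 and 8.16 (wild-type) against 8.92 and 8.82 (mutant), and rose by 0.85 (adjusted p = 0.00119). The carbonyl reductases Cbr1 (0.68), which can turn prostaglandin E2 into F2 alpha, and Cbr3 (0.51) also rose. The Cbr3 call ended without mutant replicate 1, at a difference of 0.46. Hpgds, the hematopoietic prostaglandin D synthase, read 9.84 and 9.68 against 9.28 and 9.37 and fell by 0.43 (adjusted p = 0.0142). It did not pass with mutant replicate 1 (0.154) or 2 (0.0641) left out.

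Of 5 tested genes for the receptors of other prostanoids and their partners, 1 was called, beside 29.8% of all tested genes. It was Ptgfrn, which encodes a membrane protein that associates with the prostaglandin F receptor, and it fell (-0.46). It did not pass without mutant replicate 1 (-0.40, adjusted p = 0.136) or when its probe sets were averaged (-0.16, 0.197). The prostacyclin receptor Ptgir read 7.52 and 7.01 (wild-type) against 7.18 and 6.86 (mutant). Its pairs overlapped (difference -0.24, adjusted p = 0.321). The prostaglandin F receptor Ptgfr lay below the filter at 5.16 to 5.70, with a difference of -0.36 (adjusted p = 0.0539 in the fit of all genes).

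Transport and breakdown gave 1 rise and 4 falls among 7 tested genes, beside 11.1% and 18.7% of all tested genes. Slco2a1, the transporter that takes prostaglandins into cells for degradation, read 8.62 and 8.63 (wild-type arrays) against 7.47 and 7.68 (mutant arrays). It fell by 1.05 (adjusted p = 2.02e-04), and by 0.50 with its 4 probe sets averaged (0.00577). Slco3a1, a related transporter, fell by 0.56, a call that ended without mutant replicate 1 (adjusted p = 0.124). Ptgr2, which reduces 15-keto-prostaglandin E2, the product of Hpgd, rose by 0.61 (adjusted p = 0.00308), and by 0.35 with its 6 probe sets averaged (0.031). Ptgr1, another reductase of this group, fell (-0.43, adjusted p = 0.00962). Its call was lost with mutant replicate 1 (-0.43) or mutant replicate 2 (-0.42) left out.

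In the leukotriene and epoxide branches, which share the arachidonic acid pool, 2 of 11 tested genes rose and 5 fell. Of all tested genes 11.1% rose and 18.7% fell. Ephx2, the soluble epoxide hydrolase, rose from 8.97 and 8.56 to 12.08 and 11.96, a difference of 3.26. Alox5, which starts leukotriene synthesis, read 9.27 and 9.34 against 8.75 and 8.66 and fell by 0.60. Ltc4s, leukotriene C4 synthase, rose by 0.56. Cyp4f18, a leukotriene B4 hydroxylase, fell by 0.67 (-0.36 with probe sets averaged, adjusted p = 0.0529). Cysltr1, a cysteinyl leukotriene receptor, fell by 0.49. Its call ended with every probe set tested (adjusted p = 0.0646), after a second quantile normalization (0.057), with arrays centred on the median of the tested genes (0.0592) and without mutant replicate 1 (0.0667) or 2 (0.0996). Without wild-type replicate 1 the Cysltr1 difference was -0.27.

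**Figure D4:**
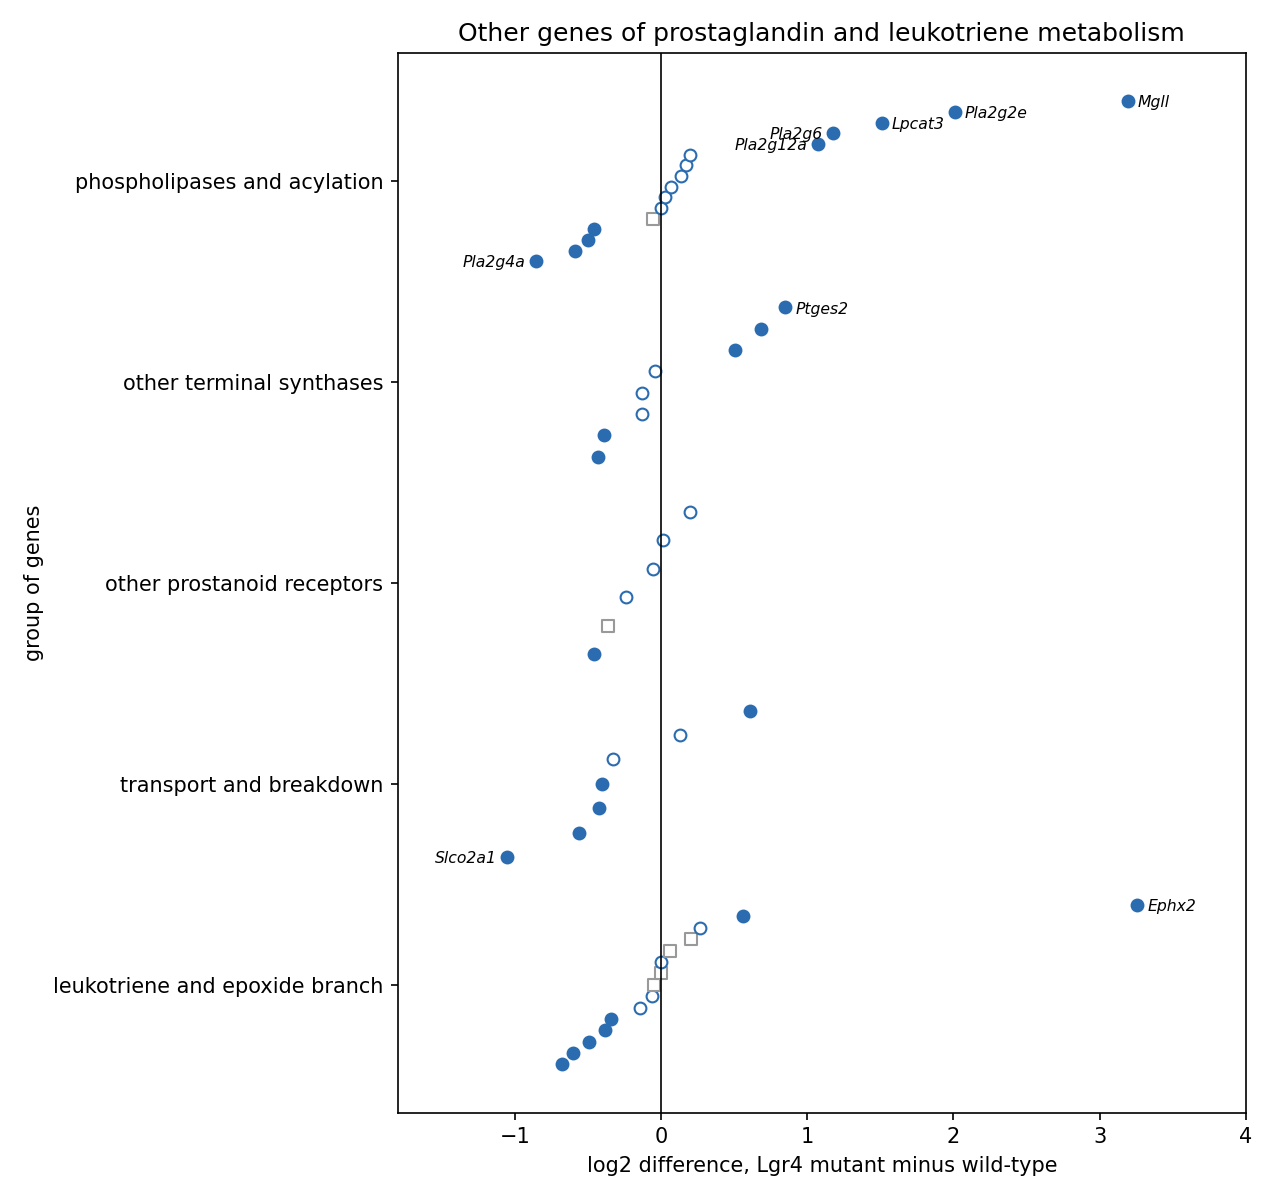
Log2 difference, mutant minus wild-type (horizontal axis), of the 52 other eicosanoid genes in 5 groups (vertical axis), filled where the adjusted p was under 0.05, open where not, and grey squares for genes below the filter. Ephx2 (3.26) and Mgll (3.19) stand far to the right, and Slco2a1 (-1.05) and Pla2g4a (-0.85) at the left.

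The cell type markers of the cultures differed between genotypes as well. Their counts stand beside 11.1% of all tested genes that rose and 18.7% that fell. Of 10 listed adipocyte genes 8 were on the array, and all 8 rose, with a summed linear signal of 37295 to 38230 in wild-type and 103570 to 104790 in mutant cultures. The brown adipocyte list had 4 rises among 6 tested genes. Its sums, over all 8 genes with those below the filter included, were 924 to 1074 against 4612 to 5265. The rises include Elovl3 and Ucp1, which were tested only because of their mutant values. Of 13 macrophage genes on the array, of 14 listed, 7 fell and 6 did not pass, and the summed signal was 114760 to 121410 against 97139 to 97265. All 13 lay above the filter, so macrophage transcripts were present in every culture. Smooth muscle and mural genes gave 5 falls and 1 rise among 8, with sums of 36566 to 37510 against 22949 to 26726. Progenitor and fibroblast genes gave 7 falls among 11, with sums of 71982 to 72887 against 56372 to 58688.

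Mast cell genes were mostly below the filter (4 of 9 above it), with sums of 471 to 501 in wild-type and 597 to 631 in mutant cultures. Of the 4 tested, 1 rose, the tryptase gene Tpsab1, from 6.33 and 5.91 to 7.09 and 6.97 (0.91, adjusted p = 0.0023). Its wild-type mean of 6.12 lay below the filter, so Tpsab1 was tested only because of its mutant values. The other 3 had differences of 0.03 to 0.28. In limma 0 of 5 tested mesothelial genes passed (1 had an unadjusted p under 0.05), and 0 of 3 lymphocyte genes (1 had an unadjusted p under 0.05). Of 7 endothelial genes 1 rose and 1 fell. These small counts cannot be told apart from the shares over all tested genes, 11.1% higher and 18.7% lower. The rises of Ptges and Ptger3 had the direction of most adipocyte and brown adipocyte genes. The falls of Ptgis, Ptger2, Ptger4, Pla2g4a and Alox5 had that of most macrophage, mural and progenitor genes. With a single contrast, any gene that rose or fell shares its direction with such lists. The part of these lists in each result was not tested. In RNA from whole cultures, fewer cells of a type and less RNA per cell cannot be told apart.

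**Figure D5:**
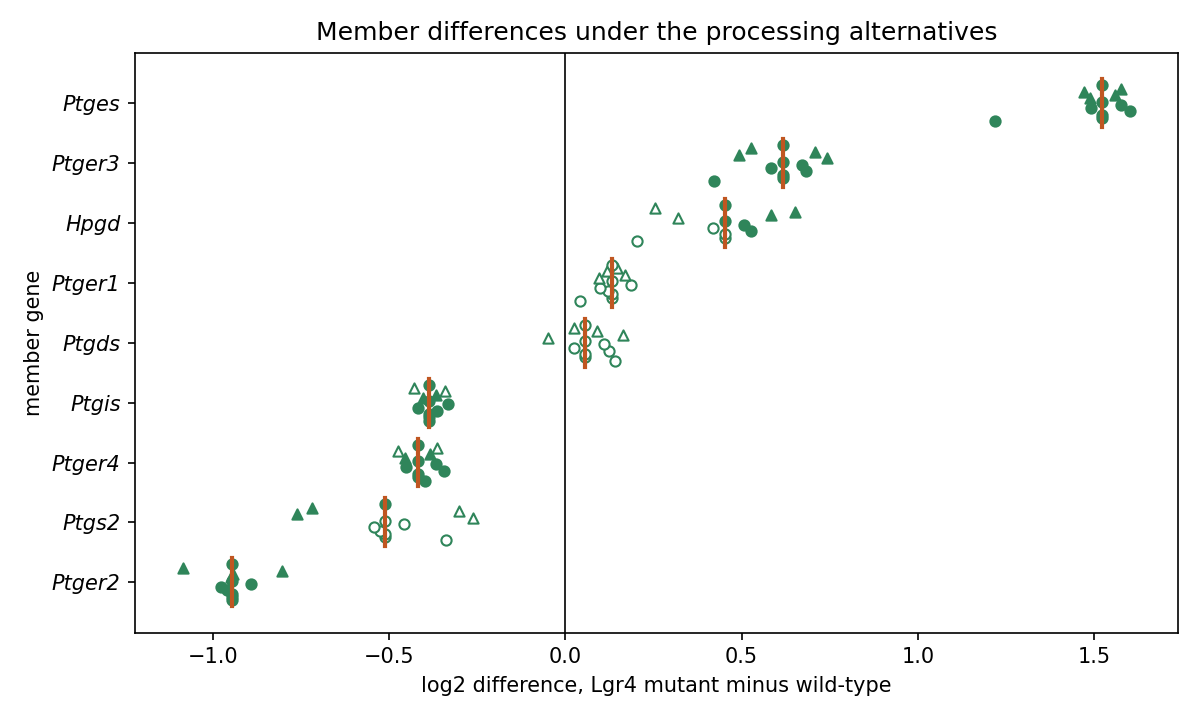
Log2 difference, mutant minus wild-type (horizontal axis), of each of the 9 genes under the 12 alternatives, as circles (other settings) or triangles (an array left out), filled where the adjusted p was under 0.05, with the reported value as an orange line. Ptges, Ptger2 and Ptger3 passed under all 12, whereas Ptgis and Ptger4 lost their call without either mutant array.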

How the data were processed

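The authors deposited a log2 signal for every probe set of a 3' expression array. Per the submitters' processing notes, the authors made them with Partek 6.6 and RMA, which subtracts background, equalises the arrays and summarises probes, and which compresses differences near background. That the scale is log2 was inferred from their range. Per the labels' protocols, 500 ng of total RNA was labelled for each array. Of 45101 probe sets, 64 were controls, and 34945 named 1 gene, 932 several and 9160 none; only the first kind was used.

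A gene was represented by its probe set of highest mean and tested where that mean passed the 40th percentile (6.13), leaving 13173 genes. Genes below it have values from the same fit without the filter. Genotypes, grouped by sample title, were tested, 2 against 2 arrays, by lmFit and eBayes (no trend) of limma 3.58.1 under R 4.3.3, with Benjamini-Hochberg adjustment over all tested genes at 0.05. Residual degrees of freedom were 2, with 6.21 prior ones added. Precision is limited by the number of arrays. The replicates of a pair differed by a median of 0.14 (wild-type) and 0.0726 (mutant).

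The member genes, the lists and the tests were chosen with earlier results of these data known. The text names every member, the 20 called related genes with the largest differences, and Ptgir, Ptgfr, Hpgds and Pla2g4a. Ptgr1 was added later, to stand beside Ptgr2. Promoters and current gene names came from RefSeq tables (GRCm38.p6). Alternatives covered the probe set rule, filter, scaling, spread trend, each array left out and a replicate block.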

Additional observations from a re-analysis of the deposited data

How the results depend on the processing

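Of 108 values (9 genes under 12 alternatives), 94 kept their direction and side of the threshold. Of the others 4 lost a call (Ptgis and Ptger4, each without either mutant array), 9 gained one (6 for Hpgd, 3 for Ptgs2) and 1 changed sign, Ptgds, whose difference ran from -0.0485 to 0.162 with single arrays left out and was negative without wild-type replicate 1 alone. Between 4 and 7 of the 9 genes were called when single arrays were left out. Calls over all genes ran from 1851 to 6349 in those fits and were 3924 with all arrays; those of the 46 related genes ran from 15 to 30, against 27. Higher genes made up 37.1% of all calls, and 48.5% (1748 higher, 1858 lower) with arrays centred on the median of the tested genes, an alternative chosen after seeing the data; the 9 genes then gave 3 rises and 3 falls. Centring on the median of all probe sets gave 30.8%.

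The replicate numbers are not stated to pair the arrays, and deviations of same-numbered arrays correlated at 0.159 across genes. With the number as a replicate block there were 4879 calls over all genes, 7 among the 9 (Hpgd and Ptgs2 added) and 28 among the related genes. That fit left 1 residual degree of freedom and gave every gene the same SE of 0.117, so its p-values carry no information on the spread of a single gene. Low signals limit what these arrays can show, as for Ptger2 in mutant cultures, close to the filter, and the second probe sets of 5 genes, below it.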

Other observations

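Within an array, the change of one prostaglandin gene relative to another does not depend on how arrays were scaled by a constant. The pairs below were chosen after the values were seen. Set against the wild-type mean of the same pair, Ptges gained on Ptgs2, the enzyme upstream of it, by 2.30 and 1.77 on the mutant arrays, against -0.29 and 0.29 on the wild-type arrays. It gained on Ptgis, which uses the same substrate, by 2.01 and 1.81, and on Hpgd, which degrades its product, by 1.32 and 0.82.

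Among the receptors, Ptger3 gained on Ptger2 by 1.61 and 1.51 on the mutant arrays, a mean of 1.56 on the log2 scale or 2.95-fold. It gained on Ptger4 by 0.89 and 1.18. In these 5 pairs both mutant arrays stood above both wild-type arrays. No test was applied, since the pairs were picked for their values. These ratios describe unequal change and not the amounts of enzyme, receptor or prostaglandin, none of which was measured.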
